A study of Mus musculus with 7 samples.

Results

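The Zscan4 cluster is a row of near-identical genes on mouse chromosome 7. All 9 copies with the symbols Zscan4a, Zscan4b, Zscan4c, Zscan4d, Zscan4e, Zscan4f, Zscan4-ps1, Zscan4-ps2 and Zscan4-ps3 were taken, by gene symbol alone, from a table of 54838 genes, and each was read in every library. The table holds 7 RNA libraries from mouse cultures in 3 groups. M-iPSC are 3 induced pluripotent stem cell (iPSC) colonies, read here as grown from germinal center (GC) B cells that were sorted by Myc-GFP, a reporter of help from T follicular helper cells; the M in the titles is not spelled out. GC-iPSC are 3 iPSC colonies grown from bulk GC B cells. V6.5 is a line of mouse embryonic stem cells (ESC) of hybrid strain background, with 1 library. For both colony groups, male mice received SRBC for 9 days, and splenic B220+ CD38- Fas+ cells were held on a feeder layer of mouse embryonic fibroblasts (MEF) with cytokines for 6 days, then given doxycycline (Dox), which switches on the reprogramming genes, for 10 days and no Dox for 4 days. Each colony is a clone, grown for 1 passage on gelatin and cleared of leftover MEF by 45 min of pre-plating. The medium was KO-DMEM with fetal bovine serum and LIF. The labels do not give the donor mouse of each colony, its age or its strain, so each p below measures the spread among these colonies, and the sorted B cell and the donor cannot be told apart.

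Zscan4 genes encode DNA-binding proteins with a SCAN domain, by which such proteins pair, and zinc fingers. They are switched on in the mouse embryo at the 2-cell stage and, in cultures of pluripotent cells, in a small and changing fraction of the cells, which pass through a 2-cell-like state. Zscan4 is known for telomere lengthening and genome stability in mouse ESCs. Zscan4d is the main copy in 2-cell embryos and Zscan4c in ESCs.

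The 9 copies lie between positions 10794242 and 11614112 of chromosome 7 (GRCm38), a span of 819.9 kb, in the order Zscan4a, b, c, -ps1, d, e, f, -ps2 and -ps3. GENCODE M21 annotates Zscan4a as an unprocessed pseudogene and the other 8 as protein-coding, although 3 of them carry a pseudogene symbol. Their coding lengths are 1515 bases in Zscan4b and Zscan4e and 1518 bases in the other 6. Aligned, these 8 coding sequences share the same base at 1431 of 1518 places. The 72-base stretch without gaps that holds the most variable places is shown. Each line runs 5′ to 3′ on the coding strand, from coding base 681 to coding base 752, and capitals mark the 13 places that differ between copies. It lies in 1 exon of each copy, at chr7:11009156-11009227 (plus strand) in Zscan4c and chr7:11162690-11162761 (minus strand) in Zscan4d, to name the main copies (GRCm38).
Zscan4b: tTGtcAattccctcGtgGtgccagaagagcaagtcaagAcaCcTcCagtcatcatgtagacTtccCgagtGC
Zscan4e: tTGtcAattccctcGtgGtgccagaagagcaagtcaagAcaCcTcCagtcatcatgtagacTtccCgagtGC
Zscan4c: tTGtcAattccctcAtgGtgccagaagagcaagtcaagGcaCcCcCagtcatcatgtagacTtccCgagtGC
Zscan4f: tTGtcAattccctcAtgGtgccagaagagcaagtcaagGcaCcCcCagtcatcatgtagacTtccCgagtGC
Zscan4-ps2: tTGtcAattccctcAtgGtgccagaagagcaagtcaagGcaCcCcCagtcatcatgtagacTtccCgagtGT
Zscan4-ps3: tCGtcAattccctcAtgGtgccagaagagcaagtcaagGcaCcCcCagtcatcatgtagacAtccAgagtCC
Zscan4-ps1: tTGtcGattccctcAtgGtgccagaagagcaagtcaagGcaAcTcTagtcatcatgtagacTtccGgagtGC
Zscan4d: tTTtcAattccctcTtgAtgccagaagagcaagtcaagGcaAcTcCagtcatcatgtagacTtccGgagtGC

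Even in this stretch Zscan4b and Zscan4e are identical, as are Zscan4c and Zscan4f, so the 8 copies show 6 distinct sequences. Over whole transcripts, the 36 pairs of copies were 96.6% to 99.8% identical, with a median of 97.5%. The share of 150-base words of a copy's transcripts that no other annotated transcript held was 87.4% in Zscan4-ps1 and 87.0% in Zscan4d, 74.9% in Zscan4a and 63.6% in Zscan4-ps3. It was 39.0% in Zscan4c, 36.4% in Zscan4-ps2, 31.6% in Zscan4b, 22.6% in Zscan4e and 13.8% in Zscan4f. The sources used here do not say how reads that match several copies were counted. Counts of a single copy are therefore uncertain, most of all for Zscan4f and Zscan4e, and the sum over the 9 copies is given beside them.

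RefSeq start regions were at hand for Zscan4b, Zscan4c, Zscan4d and Zscan4f, and are shown for these 4 copies alone. The 4 windows share a stretch of 216 bases, printed 5′ to 3′ on the gene's strand, in which capitals mark the 12 places that differ (GRCm38.p6). The stretch ends at the annotated start site in Zscan4b (chr7:10905051-10905266, minus strand) and Zscan4f (chr7:11397699-11397914, plus strand). It ends 23 bases before it in Zscan4c (chr7:11005506-11005721, plus strand) and 34 bases before it in Zscan4d (chr7:11166183-11166398, minus strand).
Zscan4b: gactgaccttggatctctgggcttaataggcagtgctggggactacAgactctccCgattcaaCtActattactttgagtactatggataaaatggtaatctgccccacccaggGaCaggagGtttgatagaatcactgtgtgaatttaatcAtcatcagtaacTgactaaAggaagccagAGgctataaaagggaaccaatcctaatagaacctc
Zscan4c: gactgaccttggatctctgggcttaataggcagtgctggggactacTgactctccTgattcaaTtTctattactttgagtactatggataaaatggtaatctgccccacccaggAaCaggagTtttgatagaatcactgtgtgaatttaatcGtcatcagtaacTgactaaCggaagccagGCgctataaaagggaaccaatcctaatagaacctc
Zscan4d: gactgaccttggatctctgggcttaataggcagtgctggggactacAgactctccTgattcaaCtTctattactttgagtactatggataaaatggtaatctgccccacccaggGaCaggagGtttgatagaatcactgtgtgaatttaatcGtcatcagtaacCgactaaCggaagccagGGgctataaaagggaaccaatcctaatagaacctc
Zscan4f: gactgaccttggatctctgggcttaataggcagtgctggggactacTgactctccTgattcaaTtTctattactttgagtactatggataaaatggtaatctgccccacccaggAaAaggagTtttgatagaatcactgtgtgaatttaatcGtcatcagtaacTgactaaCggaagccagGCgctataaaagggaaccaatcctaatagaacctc

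Zscan4c and Zscan4f differ at 1 of the 216 bases, and Zscan4b and Zscan4f, the most different pair, at 11. In the full windows (250 bases before to 50 after the start site, both strands searched) the TATA box TATAAAA was found 1 time in each of the 4 copies. It begins 31 bases before the start site in Zscan4b and Zscan4f, 54 bases before it in Zscan4c and 65 bases before it in Zscan4d. That word is in 5.48% of the 32851 RefSeq windows searched, which leave out the windows of 1 chromosome. The word CCAAT was also found in all 4, on the gene's strand (ATTGG on the other strand). In the printed stretch it lies just after the TATA box, on the side of the start site. Counted on either strand, this 5-letter word is in 37.4% of windows. The octamer ATGCAAAT (1.74% of windows) and TGCACAC, a word bound by Zscan4 protein (4.40%), had no match in these windows. A match or its absence is a description of these letters only.

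Every copy was highest in GC-iPSC, intermediate in M-iPSC and lowest in V6.5. Levels are CPM, counts scaled to library size, after TMM scaling, which adjusts that size for differences in composition. The summed copies reached 378, 588 and 450.1 CPM in the 3 M-iPSC colonies and 777, 846 and 859 CPM in the 3 GC-iPSC colonies, against 122 CPM in V6.5. No M-iPSC colony reached a GC-iPSC colony, and every colony lay above V6.5. The mean sum was 472 ± 107 CPM in M-iPSC and 827 ± 44.1 CPM in GC-iPSC (SD, n = 3 each), so M-iPSC held 0.571 of the GC-iPSC level. It was 6.78-fold higher in GC-iPSC and 3.87-fold higher in M-iPSC than in the V6.5 library, the same library in both ratios. These are libraries of whole cultures, in which fewer cells in the 2-cell-like state and less Zscan4 RNA per cell cannot be told apart.

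**Figure D1:**
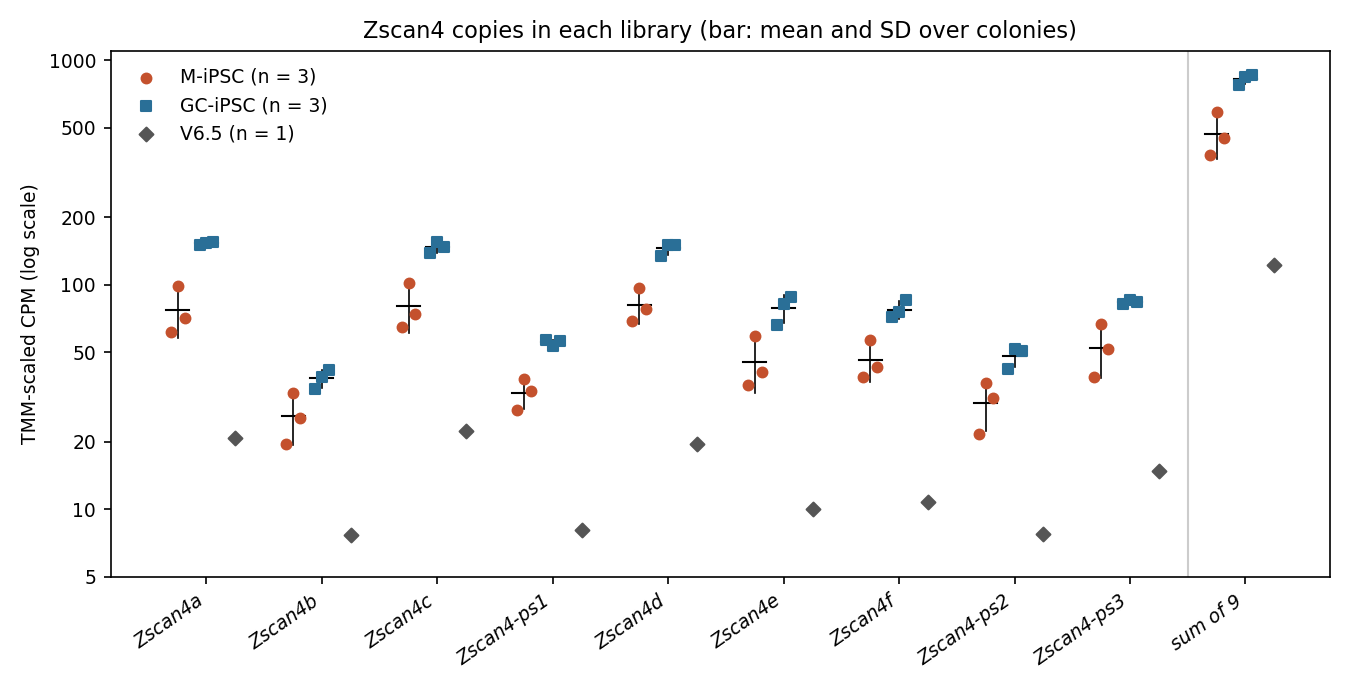
TMM-scaled CPM (log scale) of each Zscan4 copy and of their sum in the 3 M-iPSC colonies, the 3 GC-iPSC colonies and the V6.5 library, with copies in chromosome order; points are libraries and bars the mean and SD over colonies. For every copy the GC-iPSC points lie above the M-iPSC points and V6.5 lies lowest; the sum runs from 378 to 588 CPM in M-iPSC and from 777 to 859 CPM in GC-iPSC, against 122 CPM in V6.5.

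The copies drew 12370, 19646 and 14203 counts in M-iPSC colonies and 28008, 27760 and 27386 counts in GC-iPSC colonies, against 3643 counts in V6.5. Those 3643 counts are 0.0117% of the V6.5 library (95% exact binomial interval 0.0113% to 0.0121%, counting error only). Library totals ran from 31139508 to 35728921 counts, with V6.5 the smallest. M-iPSC colonies 2 and 3 had 0 counts of the Y-linked genes Eif2s3y, Uty and Ddx3y, whereas M-iPSC colony 1, every GC-iPSC colony and V6.5 had at least 158 counts of each. The labels give a male source for these 2 colonies as well, and why they had no counts of these genes was not tested. M-iPSC colony 1, which has these Y counts, had the lowest Zscan4 sum of the 6 colonies, and results with that colony as the only M-iPSC library are given below.

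M-iPSC colonies were set against GC-iPSC colonies to ask how the copies differ with the B cell source. Of the copies that encode the proteins best known from embryo and ESC work, Zscan4c had 65.2, 102 and 74.1 CPM in M-iPSC and 139, 155 and 148 CPM in GC-iPSC. It fell by 0.87 ± 0.13 (SE) on the log2 scale in M-iPSC (edgeR adjusted p = 0.00205). Zscan4d had 69.0, 96.7 and 77.7 CPM in M-iPSC and 134, 150.5 and 151 CPM in GC-iPSC, and fell by 0.84 ± 0.10 on the log2 scale. Its edgeR adjusted p of 6.89e-04 was the smallest of the 9. In both genes the highest M-iPSC colony, colony 2, stayed below the lowest GC-iPSC colony, colony 1. Zscan4f had 38.8, 56.6 and 43.0 CPM in M-iPSC and 71.9, 75.4 and 85.7 CPM in GC-iPSC, again without overlap, and fell by 0.75 ± 0.12 on the log2 scale (edgeR adjusted p = 0.00361).

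Zscan4b, the coding copy with the lowest count in V6.5, had 19.5, 33.1 and 25.6 CPM in M-iPSC and 34.4, 38.8 and 41.6 CPM in GC-iPSC. Its groups did not overlap either, but M-iPSC colony 2 came close to GC-iPSC colony 1. Its log2 difference of -0.56 ± 0.15 was the only one of the 9 that did not pass (edgeR adjusted p = 0.0654). Zscan4e, which shares the Zscan4b sequence in the stretch printed above, had 35.9, 59.4 and 41.0 CPM in M-iPSC and 66.4, 82.0 and 87.9 CPM in GC-iPSC. It fell by 0.80 ± 0.16 on the log2 scale (edgeR adjusted p = 0.0125), with the colony groups apart.

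Zscan4a, the copy that the annotation calls a pseudogene, showed the largest difference of the 9. It had 61.7, 99.2 and 71.6 CPM in M-iPSC and 150.2, 154 and 155 CPM in GC-iPSC, and fell by 0.98 ± 0.13 on the log2 scale (edgeR adjusted p = 0.00111). The 3 GC-iPSC values lay close together, and the M-iPSC values spread widely but stayed below them. Zscan4-ps1 had 27.7, 38.1 and 33.7 CPM in M-iPSC and 56.6, 53.6 and 56.2 CPM in GC-iPSC, a fall of 0.74 ± 0.10 (edgeR adjusted p = 0.00169). Zscan4-ps2 had 21.6, 36.4 and 31.5 CPM in M-iPSC and 42.1, 51.7 and 50.7 CPM in GC-iPSC, a fall of 0.69 ± 0.15 (edgeR adjusted p = 0.0244). Zscan4-ps3 had 38.7, 66.8 and 51.9 CPM in M-iPSC and 82.0, 85.5 and 83.8 CPM in GC-iPSC, a fall of 0.68 ± 0.14 (edgeR adjusted p = 0.0185). All 3 copies with a pseudogene symbol thus moved the same way as the coding copies.

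In all, 8 of 9 copies passed the edgeR test, each lower in M-iPSC, against 2.27% of the 18166 genes tested that were called lower and 1.70% called higher. The median log2 change of the 9 was -0.75, against 0.0027 over all genes tested. In all 9 copies every M-iPSC colony lay below every GC-iPSC colony, which held for 12.0% of genes tested. The copies share reads and move together, so they are not 9 separate observations. The count rests on particular colonies: 5 copies passed without M-iPSC colony 3 and 5 without GC-iPSC colony 2. Zscan4e, Zscan4-ps2 and Zscan4-ps3 did not pass in either, with edgeR adjusted p of 0.0937, 0.0935 and 0.105 without M-iPSC colony 3, and of 0.0694, 0.134 and 0.0886 without GC-iPSC colony 2. With M-iPSC colony 1 as the only M-iPSC library, all 9 copies passed, each lower in that colony; this sets 1 library against the GC-iPSC colonies.

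**Figure D2:**
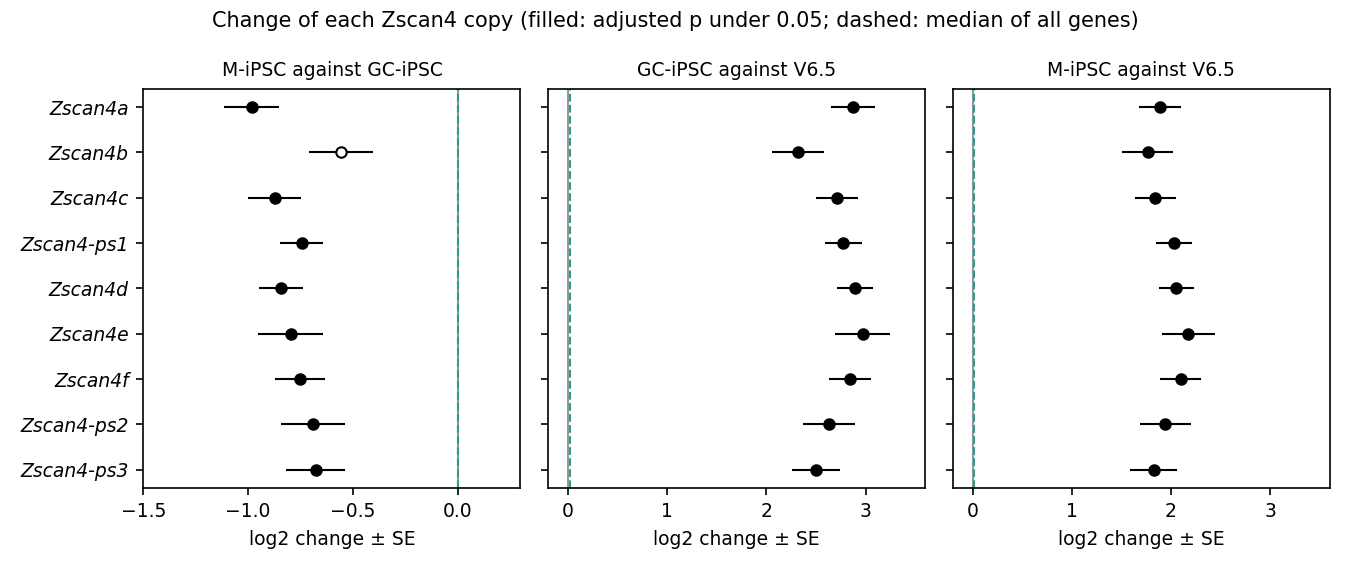
Log2 change with its SE for each Zscan4 copy in M-iPSC against GC-iPSC, GC-iPSC against V6.5 and M-iPSC against V6.5, from the edgeR fits; filled points have an adjusted p under 0.05 and the dashed line is the median over all genes tested. The first panel runs from -0.98 (Zscan4a) to -0.56 (Zscan4b, the only open point), the second from 2.32 to 2.97 and the third from 1.76 to 2.18; the last 2 panels share the V6.5 library.

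The colonies were then set against the ESC line. GC-iPSC exceeded V6.5 in all 9 copies, by 2.32 (Zscan4b) to 2.97 (Zscan4e) on the log2 scale with a median of 2.77, against 0.018 over all genes tested. Zscan4c, the main ESC copy, had 139, 155 and 148 CPM in GC-iPSC, against 22.4 CPM in V6.5 (log2 change 2.71 ± 0.21, edgeR adjusted p = 7.93e-06). Zscan4d had 134, 150.5 and 151 CPM in GC-iPSC, against 19.5 CPM in V6.5 (log2 change 2.89 ± 0.18, edgeR adjusted p = 1.32e-06). The 9 adjusted p from edgeR lay between 1.32e-06 and 7.51e-05. Of the 20502 genes tested, 7.53% were called higher and 5.51% lower in GC-iPSC, and 34.7% had every GC-iPSC colony above V6.5.

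M-iPSC also exceeded V6.5 in all 9 copies, by 1.76 (Zscan4b) to 2.18 (Zscan4e) on the log2 scale with a median of 1.94, against 0.019 over all genes tested. Zscan4c had 65.2, 102 and 74.1 CPM in M-iPSC, against 22.4 CPM in V6.5 (log2 change 1.84 ± 0.21, edgeR adjusted p = 5.59e-05). Zscan4b, with the smallest change, had 19.5, 33.1 and 25.6 CPM in M-iPSC, against 7.67 CPM in V6.5 (log2 change 1.76 ± 0.25, edgeR adjusted p = 3.65e-04). Even the lowest M-iPSC colony, colony 1, had more than 2-fold the V6.5 level of each copy. Of genes tested, 8.84% were called higher and 7.37% lower in M-iPSC, and 34.7% had every M-iPSC colony above V6.5. Both comparisons rest on 1 V6.5 library, which edgeR takes to vary like the colonies.

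The spread among colonies differed in size between the groups. The coefficient of variation of the sum was 22.6% over M-iPSC colonies and 5.33% over GC-iPSC colonies. It was larger in M-iPSC for each of the 9 copies, from 15.8% (Zscan4-ps1) to 27.2% (Zscan4e), against 1.59% (Zscan4a) to 14.1% (Zscan4e) in GC-iPSC. M-iPSC colony 2 was the highest and M-iPSC colony 1 the lowest of its group for every copy. With 3 colonies a group this difference in spread was not tested.

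Within a library, the counts of the cluster were divided among the copies in shares that ranged from 4.43% to 19.3%. Zscan4c, Zscan4d and Zscan4a drew the most counts. Zscan4c took 17.02% ± 0.48 of the summed counts in M-iPSC and 17.8% ± 0.55 in GC-iPSC (SD, n = 3 each), against 18.4% in V6.5. Zscan4d took 17.3% ± 0.90 in M-iPSC and 17.6% ± 0.24 in GC-iPSC, against 583 of 3643 counts in V6.5. Shares overlapped between the colony groups for 7 of the 9 copies, and those of Zscan4a and Zscan4b did not. Zscan4a took 15.9% to 16.9% in M-iPSC and 18.0% to 19.3% in GC-iPSC, with V6.5 in between at 17.1%. Zscan4b took 5.17% to 5.70% in M-iPSC and 4.43% to 4.85% in GC-iPSC, against 6.29% in V6.5. For both, the two-sided exact permutation p was 0.10, the smallest that 3 against 3 colonies can give, so no share could pass a threshold of 0.05. Over the 7 libraries, the log2 CPM of each pair of copies had a Pearson r of 0.983 to 0.999, which describes 3 groups of libraries that share their order, and copies that share reads.

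**Figure D3:**
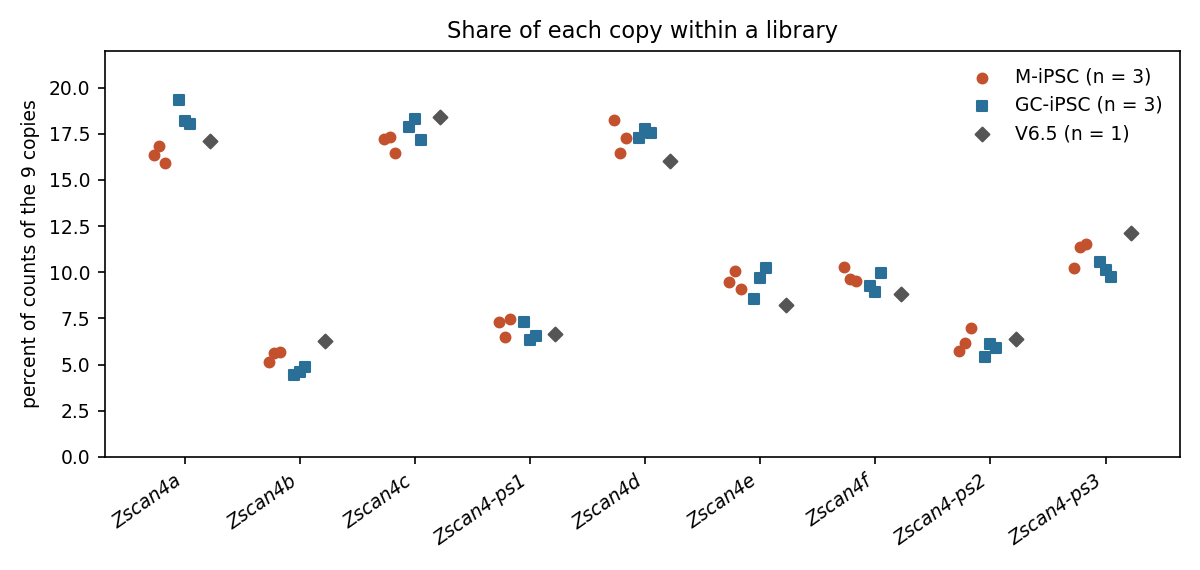
Percent of the counts of the 9 Zscan4 copies taken by each copy in each library, for the 3 M-iPSC colonies, the 3 GC-iPSC colonies and V6.5; points are libraries. Zscan4c, Zscan4d and Zscan4a take 15.9% to 19.3% each and Zscan4b 4.43% to 6.29%, and the M-iPSC and GC-iPSC points lie apart for Zscan4a and Zscan4b alone.

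Set per length, as mean CPM per kb of exon in GC-iPSC, Zscan4a (67.1), Zscan4c (64.6) and Zscan4d (63.9) stood highest. Zscan4e (43.9), Zscan4f (39.6) and Zscan4-ps3 (36.8) followed, then Zscan4-ps1 (27.5), Zscan4b (21.2) and Zscan4-ps2 (21.2). The order depends on what is taken as countable sequence. Per 100 words of 150 bases held by no other annotated transcript, mean CPM in GC-iPSC was highest in Zscan4f (33.5), Zscan4e (21.8) and Zscan4c (17.7) and lowest in Zscan4-ps1 (3.40). Which of these scales applies depends on how shared reads were counted, which is not known here, so no order of the copies by level is given beyond these values.

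The counts were confined neither to one end of the cluster nor to a single copy. Inside the span GENCODE lists 44 other genes, of which 41 are pseudogenes and 3 are miRNA genes. Of these, 18 had no counts and 42 had at most 24 counts in any library, so the copies stand out from surroundings with few counts. Gm18204, a processed pseudogene, had 35, 45 and 19 counts in M-iPSC and 49, 39 and 34 in GC-iPSC, against 0 in V6.5. Its difference between the colony groups did not pass by edgeR (log2 -0.26 ± 0.36). It was higher than V6.5 by 8.302 in GC-iPSC and 8.04 in M-iPSC on the log2 scale. The size of both changes rests on 0 counts in 1 V6.5 library. All 44 together held between 63 and 341 counts per library. Gm45551, an unprocessed pseudogene and the only other annotated gene found to share 150-base words with the copies, had the most. It had 123, 138 and 125 counts in M-iPSC and 211, 133 and 166 counts in GC-iPSC, against 39 counts in V6.5. Its M-iPSC and GC-iPSC counts overlapped and the difference did not pass (log2 -0.35 ± 0.19, edgeR adjusted p = 0.394), and it was higher in GC-iPSC than in V6.5 (log2 change 1.94 ± 0.33, edgeR adjusted p = 0.00145).

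**Figure D4:**
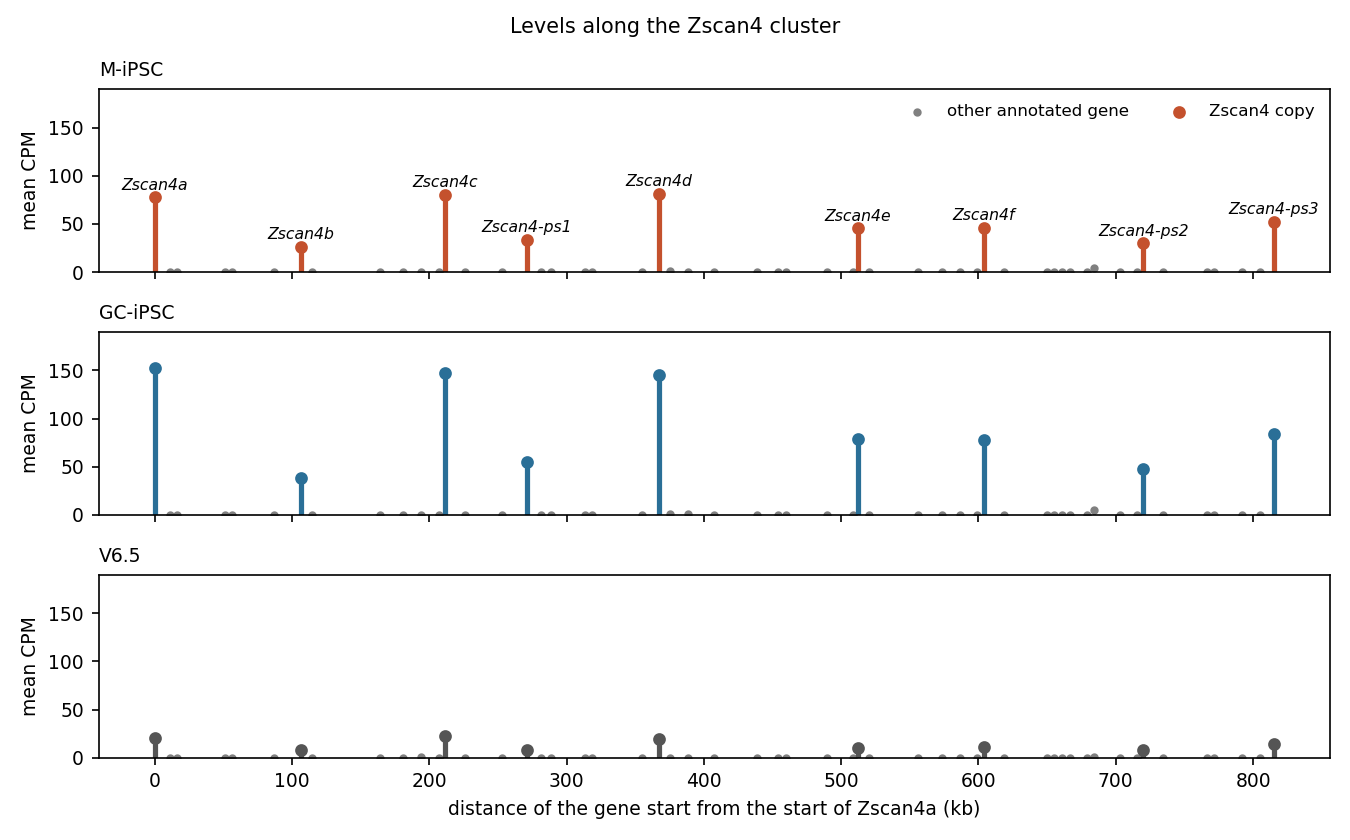
Mean CPM of the 9 Zscan4 copies (coloured) and of the 44 other annotated genes of the span (grey) against the distance of each gene's start from the start of Zscan4a in kb, for M-iPSC (n = 3), GC-iPSC (n = 3) and V6.5 (n = 1). The copies stand at 26.1 to 81.1 CPM in M-iPSC, 38.3 to 153 CPM in GC-iPSC and 7.67 to 22.4 CPM in V6.5, and the other genes lie at or near 0, with Gm45551 at 5.04 CPM in GC-iPSC.

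Outside the cluster, the genes whose log2 CPM followed the summed copies most closely over the 7 libraries were sought among 14736 genes with a mean of at least 1 CPM. Tmem132c, which encodes a membrane protein, came first with a Pearson r of 0.999. It averaged 14.0 ± 3.17 CPM in M-iPSC and 26.1 ± 1.32 CPM in GC-iPSC (SD, n = 3 each), against 3.52 CPM in V6.5, and fell by 0.89 on the log2 scale in M-iPSC against GC-iPSC (edgeR adjusted p = 0.00336). Gm2035, Usp17la, Gm6489, Gm5939, Gm7957, Gm13228, Pramef25, Gm4971 and Gm6494 followed, down to an r of 0.994. Usp17la and Pramef25 are on the 2-cell-like list described next. In all, 19 genes had an r over 0.99, and the median was 0.977 over 32 genes of the 2-cell-like list and -0.063 over all genes compared. These r mostly restate the order of 3 groups and carry no test.

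Zscan4 copies belong to a wider 2-cell-like program, and 41 genes of it outside the cluster were followed. Of the 36 tested in M-iPSC against GC-iPSC, 19 were lower in M-iPSC, 0 were higher and 17 did not pass. Over all genes tested, 2.27% were called lower and 1.70% higher. By DESeq2 or limma-voom, and at an unadjusted p under 0.05 in edgeR, 0 genes of the list were higher as well. The median log2 change of the list was -0.88, against 0.0027 over all genes tested. The list summed to 254 to 368 CPM in M-iPSC and 574 to 627 CPM in GC-iPSC, against 110.5 CPM in V6.5. This is the same order of groups as in the Zscan4 sum. Tcstv3, an early embryo gene of a multicopy family, had 5.10, 6.26 and 5.26 CPM in M-iPSC and 12.7, 12.7 and 12.0 CPM in GC-iPSC, against 1.47 CPM in V6.5 (log2 change in M-iPSC against GC-iPSC -1.17 ± 0.14, edgeR adjusted p = 4.89e-04). Tcstv1, of the same family, fell by 0.84 ± 0.15 (edgeR adjusted p = 0.00798), and Zfp352, a zinc finger gene of the early embryo, by 0.91 ± 0.19 (edgeR adjusted p = 0.0191). Sp110 fell by 1.39 ± 0.23 (edgeR adjusted p = 0.00498) and Gm2016 by 1.24 ± 0.13 (edgeR adjusted p = 2.65e-04). Zfp352 did not pass without M-iPSC colony 3, without GC-iPSC colony 2 or without GC-iPSC colony 3, nor did Tcstv1 without GC-iPSC colony 2. Tdpoz4, a BTB-domain gene of early embryos, departed from the order: it had 0.458, 0.539 and 0.412 CPM in M-iPSC and 4.61, 4.36 and 3.73 CPM in GC-iPSC, against 0.536 CPM in V6.5. In M-iPSC its log2 difference from V6.5 was -0.19 ± 0.43, at levels below 1 CPM in both. So low a level limits any comparison with the Zscan4 copies. Against V6.5, the 37 tested genes of the list had a median log2 change of 2.46 in GC-iPSC and 1.67 in M-iPSC. The medians over all genes tested were 0.018 and 0.019. Of the 37, 35 had a positive change in GC-iPSC and 34 in M-iPSC.

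Of 5 activators of Zscan4, 2 were lower in M-iPSC than in GC-iPSC by edgeR and 3 did not pass. The share of all genes tested that were called lower was 2.27%. Duxf3, a copy of the multicopy mouse Dux gene that switches on the 2-cell-like program, had 2.29, 3.02 and 3.11 CPM in M-iPSC and 3.11, 3.57 and 5.05 CPM in GC-iPSC, against 1.07 CPM in V6.5. The colony groups met at their edges and did not differ past the threshold (log2 difference -0.48 ± 0.24, edgeR adjusted p = 0.349), while Duxf3 was higher than V6.5 in GC-iPSC (1.86 ± 0.40, edgeR adjusted p = 0.00713) and in M-iPSC (1.38 ± 0.40, edgeR adjusted p = 0.0297). Dppa2, which with Dppa4 activates Dux, had 108, 117 and 109 CPM in M-iPSC and 141, 151 and 129.8 CPM in GC-iPSC, against 98.3 CPM in V6.5. It fell by 0.34 ± 0.070 on the log2 scale in M-iPSC against GC-iPSC (edgeR adjusted p = 0.0173), without overlap. Nelfa, an elongation factor subunit and driver of the 2-cell-like state, fell by 0.35 ± 0.078 (edgeR adjusted p = 0.0274). Dppa4 (-0.22 ± 0.067, edgeR adjusted p = 0.101) and Tbx3, a T-box factor (0.051 ± 0.094, edgeR adjusted p = 0.854), did not pass. Neither Dppa2 nor Nelfa passed without M-iPSC colony 1, without M-iPSC colony 3, without GC-iPSC colony 1 or without GC-iPSC colony 2. Tbx3 had 101, 137 and 119.8 CPM in M-iPSC and 112, 113 and 119 CPM in GC-iPSC, against 209.6 CPM in V6.5, and was lower than V6.5 in both colony groups (edgeR adjusted p = 5.98e-04 for M-iPSC and 4.63e-04 for GC-iPSC). The V6.5 library thus had the lowest Zscan4 and Duxf3 and the highest Tbx3.

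Of 19 repressors of the 2-cell-like state, 1 was higher and 0 were lower in M-iPSC than in GC-iPSC by edgeR. The share of all genes tested that were called higher was 1.70%. At an unadjusted p under 0.05 in edgeR, 2 of the repressors were higher and 2 lower. The share of all genes at that unadjusted threshold is not given here, for this list or those below. Such counts therefore cannot be set against a background. DESeq2 and limma-voom also called 0 lower and 1 higher, which was Ehmt2 by limma-voom and Myc by DESeq2. The median log2 change of the list was 0.014. Ehmt2, a histone methyltransferase, had 306, 472 and 491 CPM in M-iPSC and 288, 289 and 267 CPM in GC-iPSC, against 257 CPM in V6.5 (log2 change 0.59 ± 0.13, edgeR adjusted p = 0.0276). Ehmt2 did not pass by DESeq2 (adjusted p = 0.0545), nor by edgeR without M-iPSC colony 2 (adjusted p = 0.0860), M-iPSC colony 3 (0.163), GC-iPSC colony 1 (0.0673), GC-iPSC colony 2 (0.0971) or GC-iPSC colony 3 (0.0605). With M-iPSC colony 1 as the only M-iPSC library its log2 difference was 0.12 (edgeR adjusted p = 0.705). Rif1, a telomere-associated repressor of Zscan4 (-0.085 ± 0.090, edgeR adjusted p = 0.712), and Kdm1a, a histone demethylase (-0.14 ± 0.056, edgeR adjusted p = 0.214), did not pass. Among 6 genes whose proteins partner with or respond to Zscan4, 0 passed in either direction by edgeR, DESeq2 or limma-voom, and 1 was lower at an unadjusted p under 0.05 in edgeR. Uhrf1 (-0.015 ± 0.061, edgeR adjusted p = 0.943) and Dnmt1 (-0.042 ± 0.068, edgeR adjusted p = 0.831), both of the machinery that maintains DNA methylation, were among those that did not pass.

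Among genes tied to what Zscan4 is known for, 2 of 6 tested meiotic recombination genes were lower in M-iPSC than in GC-iPSC. This compares with 2.27% of all genes tested that were called lower. Smc1b, a meiotic cohesin subunit, had 25.1, 27.0 and 21.4 CPM in M-iPSC and 32.5, 35.5 and 37.4 CPM in GC-iPSC, against 33.9 CPM in V6.5 (log2 change -0.52 ± 0.10, edgeR adjusted p = 0.0132). Stag3, another meiotic cohesin subunit, fell by 0.37 ± 0.074 (edgeR adjusted p = 0.0132). Both stood as high in V6.5 as in GC-iPSC or higher, unlike the Zscan4 copies, and neither passed without M-iPSC colony 3 or without GC-iPSC colony 2. Of 9 telomere genes, 0 passed in either direction by edgeR, DESeq2 or limma-voom, with 1 lower at an unadjusted p under 0.05 (median log2 change -0.081). Of 22 rows of other SCAN zinc finger genes, 0 passed in either direction by the same 3 tools, with 2 lower at an unadjusted p under 0.05 (median -0.046), and Zscan10, which acts in pluripotent cells, had a log2 difference of -0.14 ± 0.073 (edgeR adjusted p = 0.382).

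**Figure D5:**
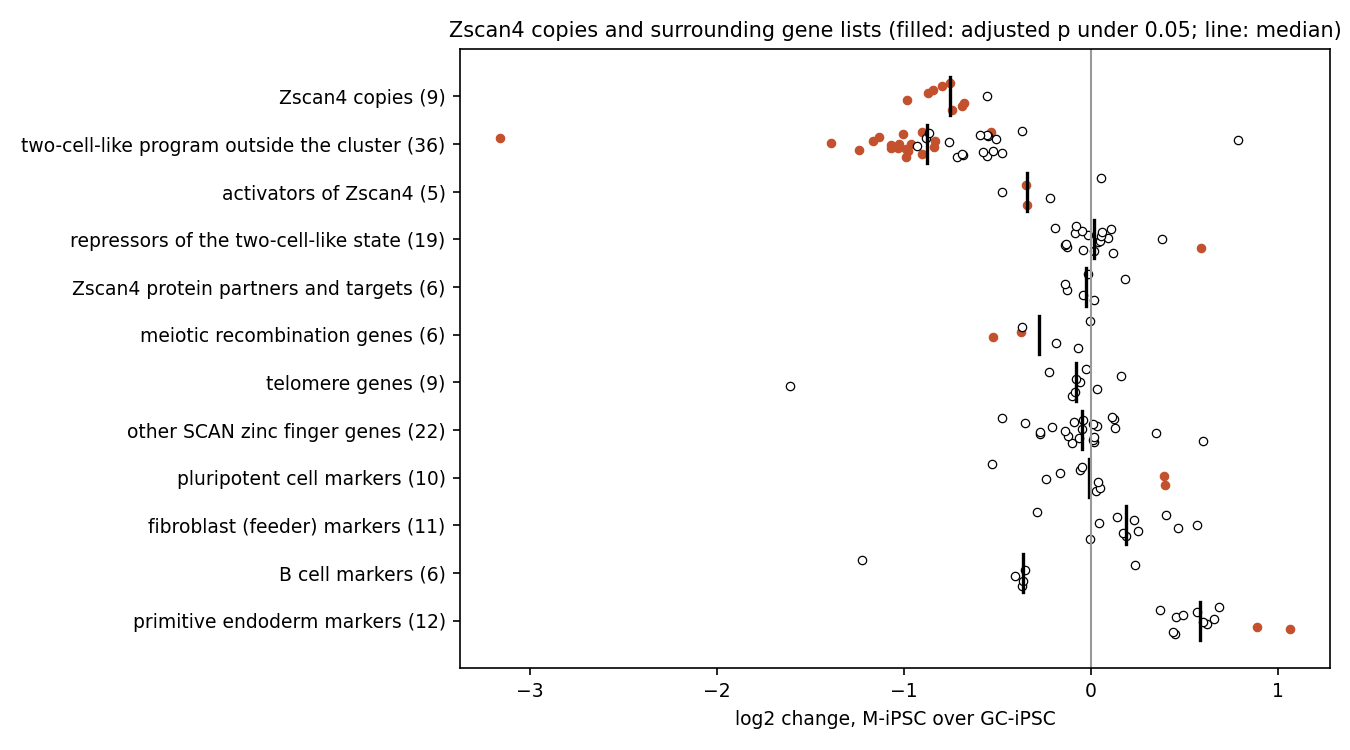
Log2 change in M-iPSC over GC-iPSC of the Zscan4 copies and of each gene list (number of tested genes or rows in brackets), from edgeR; filled points have an adjusted p under 0.05 and the line is the median of the list. The copies (median -0.75) and the 2-cell-like program (median -0.88) lie left of 0, and the repressors (median 0.014), other SCAN genes (-0.046) and telomere genes (-0.081) lie around it.

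Markers of the cultures moved with the groups in part. For the edgeR counts below, 1.70% of all genes tested were called higher in M-iPSC than in GC-iPSC and 2.27% lower. Of 10 pluripotent cell markers, Pou5f1 and Klf4 were higher in M-iPSC than in GC-iPSC by edgeR and 8 did not pass. Another 3 (Sox2, Nanog and Zfp42) were lower at an unadjusted p under 0.05, of which DESeq2 called Nanog and limma-voom called Zfp42, and Klf4 did not pass without GC-iPSC colony 2 (edgeR adjusted p = 0.0575) or without M-iPSC colonies 2 and 3. All 10 were detected in every library. They summed to 6059 to 6552 CPM in M-iPSC and 6056 to 6395 CPM in GC-iPSC, against 8202 CPM in V6.5. Against V6.5 their median log2 change was -0.42 in M-iPSC (1 of 10 positive) and -0.38 in GC-iPSC (2 of 10 positive). RNA of Dox-driven genes and of the cells' own copies is not separated in these counts. Primitive endoderm markers summed to 3482 to 5728 CPM in M-iPSC and 3038 to 3706 CPM in GC-iPSC, against 784 CPM in V6.5. In M-iPSC against GC-iPSC 2 of 12 of them (Cubn and Dab2) passed by edgeR, both higher. All 12 had a positive log2 difference (median 0.58), 11 of them at an unadjusted p under 0.05, and the count called was 4 by DESeq2, 9 with colony number as a block, 10 without M-iPSC colonies 2 and 3, and 11 without the low-count filter or without M-iPSC colony 2. Against V6.5 all 12 were higher in both colony groups, as the Zscan4 copies were. Fibroblast markers summed to 925 to 1172 CPM in M-iPSC and 916 to 971 CPM in GC-iPSC, against 520.5 CPM in V6.5; 0 of 11 tested passed between the colony groups by edgeR and limma-voom and 1 by DESeq2 (2 higher at an unadjusted p under 0.05 in edgeR), and 6 were higher than V6.5 in each. B cell markers summed to 7.99 to 9.54 CPM in M-iPSC and 9.93 to 10.3 CPM in GC-iPSC, against 10.6 CPM in V6.5; 0 of 6 tested passed between the colony groups by edgeR, DESeq2 or limma-voom (0 at an unadjusted p under 0.05 in edgeR), and Blk was at 0 in every library. Their part in the differences of the Zscan4 copies was not tested.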

How the data were processed

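The deposited table holds raw counts per Ensembl gene, as whole numbers that the authors did not normalize. Per the submitters' processing notes, STAR 2.7.10a, featureCounts 2.0.6 and DESeq2 were used on mm10 (GRCm38). Per the labels, the library is described both as non-stranded poly-A and as made with a directional kit; the strand setting and the treatment of reads that match several genes are not given in the sources used here. Of 54838 genes, 54809 matched GENCODE M21, and 29 did not.

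Groups came from sample titles. Counts were filtered with filterByExpr, TMM-scaled and tested two-sided with edgeR 4.0.16's quasi-likelihood test, on the 6 colony libraries for M-iPSC against GC-iPSC (18166 genes) and on all 7 libraries for the V6.5 comparisons (20502 genes). The p-values were adjusted by Benjamini-Hochberg over all genes tested ("edgeR adjusted p"), with a threshold of 0.05. CPM use the 7-library TMM factors. The SE of a log2 change was taken as its size divided by the root of F. The procedure was also run on simulated counts in which genes shared no reads. Its outcome is not given here, and such counts do not cover copies that share reads. Coding sequences were aligned with MAFFT 7.526; start regions are RefSeq's (GRCm38.p6). The members and lists were chosen with earlier results of these data known. Named are all copies, fixed regulators, the called genes of each list with the largest change (at most 4), neighbours, and the 10 genes most alike the sum by r of log2 CPM with a prior count of 2. Myc, Sox2, Nanog and Zfp42 were named after their values were seen. Alternatives included DESeq2 1.42.0 and limma-voom (limma 3.58.1).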

Additional observations from a re-analysis of the deposited data

How the results depend on the processing

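M-iPSC against GC-iPSC was recomputed under 13 alternatives: other scalings, no low-count filter, DESeq2, limma-voom, each colony left out, M-iPSC colonies 2 and 3 left out together, and colony number as a block. Copies called lower numbered 5 to 9 when a single colony was left out, against 8, and 8 or 9 in the other settings, with 9 under the replicate block. Same-numbered colonies correlated at 0.073, 0.075 and 0.164 in their deviations from the group means, and each colony correlated best with its own number, a hint from the data and not from the design. Over all genes 721 were called, against 1110 by DESeq2, 1318 without the filter, 412 without GC-iPSC colony 1, 244 without GC-iPSC colony 2, 270 without M-iPSC colony 3 and 373 without M-iPSC colonies 2 and 3. Over 117 values of single copies 0 changed sign and 7 lost the call, with log2 changes between -1.31 and -0.38. Zscan4b passed in 5 alternatives, and Zscan4-ps2 was also lost without GC-iPSC colony 3 (edgeR adjusted p = 0.0550). In the V6.5 comparisons all 108 values each of GC-iPSC and M-iPSC kept their call, with log2 changes of 2.26 to 3.08 and of 1.35 to 2.32. No paired analysis was possible there because the V6.5 library carries no colony number. The log2 difference of the sum ran from -1.003 to -0.68 in M-iPSC against GC-iPSC over other scalings, without Zscan4a and without single colonies. The sum was not recomputed without M-iPSC colonies 2 and 3 together or with the block. The 2-cell-like list had 13 to 25 genes lower in M-iPSC, against 19. Among uncalled regulators the sign turned when colonies were left out, and the cause was not tested. With single colonies left out, the log2 difference ran from -0.062 (without M-iPSC colony 2) to 0.16 for Tbx3, from -0.038 to 0.039 for Uhrf1, from -0.082 to 0.042 for Dnmt1 and from -0.17 to 0.053 for Rif1. Without M-iPSC colonies 2 and 3 it was -0.19 for Tbx3 and 0.026 for Uhrf1. Each copy had at least 229 counts in every library; how depth limits the calls was not tested. Primitive endoderm markers called higher in M-iPSC ran from 2 to 11 over the settings.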
